A study of Mus musculus with 8 samples.

Results

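The 39 Hox genes were examined in dorsal cortex of E15.5 mouse embryos (E gives days of gestation). Members were chosen by symbol alone, as every row named Hoxa, Hoxb, Hoxc or Hoxd followed by a number, and they are 39 of the 23284 gene rows counted. RNA was sequenced from 4 libraries labelled wild type (ErbB4+/+) and 4 labelled ErbB4 knockout (ErbB4-/-), all of strain C57BL/6. ErbB4 is a receptor tyrosine kinase. Knockout embryos die of heart defects, so the ErbB4-/- line carries an ErbB4 transgene under the cardiac α-MHC promoter, and wild type and knockout animals were bred as separate colonies. The meninges and the ganglionic eminences were dissected away before RNA extraction. The labels do not say whether the libraries of a genotype came from separate litters, so the spread between them may be partly technical.

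Hox genes encode homeodomain transcription factors that give cells their position along the axis from head to tail. They lie in 4 clusters, and genes at the 3′ end of a cluster are used in more anterior tissue than genes at its 5′ end. In the nervous system their known domains reach forward only to the hindbrain, and the telencephalon, from which the cortex arises, lies in front of them. Hox proteins bind DNA together with TALE homeodomain cofactors of the Pbx, Meis and Pknox families. Polycomb complexes keep Hox genes off outside their domains, and trithorax proteins keep them on within them.

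Between 28205703 and 48871480 reads were counted per library. All 10 dorsal telencephalon markers had reads, with Neurod6 and Bcl11b among the highest, and their summed level was 3524 to 3909 CPM (reads scaled to a common library size) in ErbB4+/+ and 3354 to 3800 CPM in the libraries labelled ErbB4-/-. Erbb4, the targeted gene, was at 8.99 to 25.3 CPM in ErbB4+/+ and 20.7 to 24.6 CPM in the libraries labelled ErbB4-/- (log2 difference 0.28, SE 0.23, edgeR adjusted p = 0.812). That difference was 0.06 without ErbB4+/+ replicate 1 and 0.48 without ErbB4+/+ replicate 3, and its edgeR and DESeq2 adjusted p ran from 0.634 to 0.984 over the alternatives. Its reads were not lower there, so they do not check the genotype labels, and every direction below follows those labels. ErbB4-/- replicate 3 stood apart in choroid plexus markers (583 CPM, against 0.749 to 9.28 CPM in ErbB4+/+, carried by Ttr), and ErbB4+/+ replicate 1 stood apart on the first principal component. Xist, a transcript of the inactive X chromosome in females, was at 983 to 1686 CPM in ErbB4+/+ replicates 1 to 3, at 3.47 CPM in ErbB4+/+ replicate 4 and at 2.70 to 3.82 CPM in the libraries labelled ErbB4-/-. The Y-linked gene Ddx3y was at 76.4 to 80.9 CPM in those 5 low-Xist libraries and at 0.257 to 0.495 CPM in the other 3, so the sex pattern and the genotype label nearly coincide, and their parts in any difference below were not separated.

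Hox transcripts were close to absent from all 8 libraries. In total 62 of 287213320 counted reads fell on Hox genes, and 24 of the 39 genes (61.5%) had 0 reads in every library. Of all 23284 rows, 4412 (18.9%) had 0 reads in every library. Of the 312 combinations of a Hox gene with a library, 279 held 0 reads. The other 15 Hox genes had 1 to 21 reads each over the 8 libraries, 7 of them in 1 library only, and none had a read in all 8 libraries. A count of 0 allows up to 3 reads, which is 0.0609 to 0.107 CPM in a single library and 0.0104 CPM over all of them. These limits and the intervals below cover counting error only, and in bulk tissue fewer cells using a gene and less RNA per cell cannot be told apart.

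**Figure D1:**
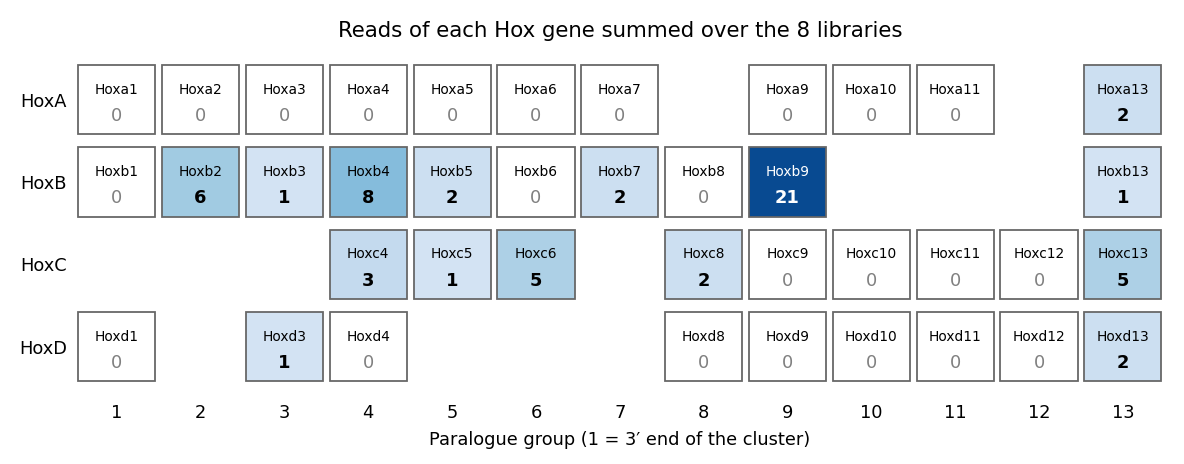
Reads of each Hox gene summed over the 8 libraries, with the clusters as rows and the 13 paralogue groups as columns (group 1 at the 3′ end); darker boxes hold more reads. The HoxA row has reads in Hoxa13 only, and Hoxb9 has the most with 21.

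The summed Hox level was low in both genotypes. ErbB4+/+ replicates 1 to 4 had 9, 6, 4 and 8 Hox reads, or 0.321, 0.192, 0.104 and 0.228 CPM. The libraries labelled ErbB4-/- had 8, 12, 8 and 7 Hox reads in replicates 1 to 4, or 0.162, 0.345, 0.205 and 0.222 CPM. The groups overlapped, with means of 0.211 ± 0.0896 CPM (SD, n = 4) and 0.234 ± 0.0782 CPM (SD, n = 4), and the highest and the lowest library lay in different genotypes. ErbB4-/- replicate 3, with the high choroid plexus markers, had 8 Hox reads, 5 of them in Hoxb9, and the part of that tissue in the Hox reads was not tested.

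**Figure D2:**
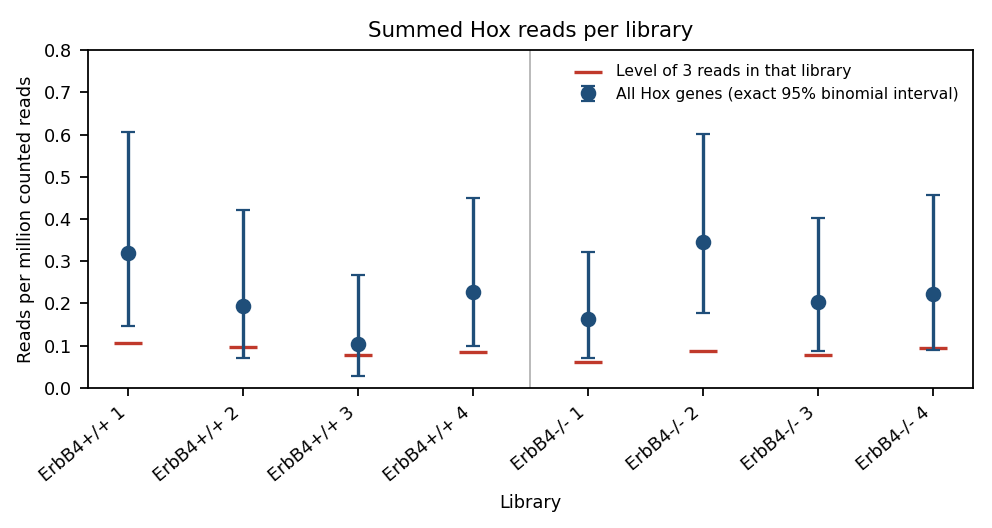
Hox reads as a share of counted reads in each library (points, CPM without TMM scaling), with exact (Clopper-Pearson) 95% binomial intervals as bars and the level of 3 reads in that library as a red line. The intervals of the lowest library (0.0284 to 0.267) and of the highest (0.178 to 0.602) overlap.

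Nearly all of the Hox exon sequence could be told apart by the short reads. A read here was 50 bases long, and 103942 of the 104186 windows of that length in Hox exons (99.8%) occurred once in the mouse genome (NCBIM37, mm9, with GENCODE exons). The lowest share for a gene was 96.4%, in Hoxc9. Windows with over 10 genome copies lay in 9 Hox genes, Hoxb4 and Hoxb9 among them, and 5 of these 9 genes had reads, as did 10 of the other 30. Among the 741 pairs of Hox genes, the median of the longest run shared between coding sequences was 14 bases, and 1 pair shared a run of at least 50 bases, in which a read could come from either gene. The longest run that Hoxb9, the Hox gene with the most reads, shared with another Hox gene was 40 bases, shorter than a read, and it is shown as the stretch in which Hoxb9 and Hoxd9 are identical:
Hoxb9 and Hoxd9: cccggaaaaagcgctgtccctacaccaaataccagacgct
Exon overlap is a separate limit. Exon bases of 18 Hox genes are also annotated to another gene, and the libraries do not keep the strand, so reads there cannot be assigned. The lowest unshared part was 32.6%, in Hoxd4. Of these 18 genes 7 had reads, and of the other 21 genes 8 had reads.

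The HoxB cluster held most of the Hox reads. It lies on chromosome 11 (chr11:96055630-96229570, mm9), and 7 of its 10 genes had reads, 41 in all or 66.1% of the Hox reads. Hoxb9, a posterior gene of paralogue group 9 (genes at matching positions of the clusters), lies at chr11:96132771-96137909 on the plus strand with 2 exons and 2574 exon bases. Hoxb9 had 7, 1, 2 and 2 reads in ErbB4+/+ replicates 1 to 4, or 0.250, 0.0321, 0.0521 and 0.0570 CPM. In the libraries labelled ErbB4-/- Hoxb9 had 0, 4, 5 and 0 reads, or 0, 0.115, 0.128 and 0 CPM. ErbB4+/+ replicate 1 was the highest, both zeros were labelled ErbB4-/-, and the groups overlapped. The means of Hoxb9 were 0.0977 ± 0.102 CPM (SD, n = 4) in ErbB4+/+ and 0.0607 ± 0.0703 CPM (SD, n = 4) in ErbB4-/- (exact two-sided permutation test, p = 0.686, smallest possible p 0.0286). Hoxb9 alone made up 33.9% of the Hox reads, and 7222 rows (31.0% of all rows) had no more reads than its 21.

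Hoxb4, of the central part of the cluster, had reads in all 4 libraries labelled ErbB4-/- and in 1 ErbB4+/+ library. It had 0, 2, 0 and 0 reads in ErbB4+/+ replicates 1 to 4 and 3, 1, 1 and 1 reads in ErbB4-/- replicates 1 to 4. The groups overlapped through ErbB4+/+ replicate 2. Hoxb2, an anterior gene of hindbrain segments, had 0 reads in all ErbB4+/+ libraries and 0, 4, 0 and 2 in ErbB4-/- replicates 1 to 4, so its groups shared the value 0. Hoxb5 had 2 reads in ErbB4-/- replicate 2, Hoxb7 had 2 in ErbB4+/+ replicate 2, Hoxb3 had 1 in ErbB4+/+ replicate 4 and Hoxb13 had 1 in ErbB4-/- replicate 1. Hoxb1, Hoxb6 and Hoxb8 had 0 reads.

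The HoxC cluster (chr15:102751534-102867274) had 16 reads in 5 of 9 genes, 25.8% of the Hox reads. Hoxc6 had 1, 0, 1 and 3 reads in ErbB4+/+ replicates 1 to 4 and 0 in all libraries labelled ErbB4-/-. Hoxc13 had 0, 0, 1 and 1 reads in ErbB4+/+ replicates 1 to 4 and 2, 0, 0 and 1 in ErbB4-/- replicates 1 to 4. Both genes overlapped between the genotypes, at 0. Hoxc4 had 1 read in ErbB4+/+ replicate 4 and 2 in ErbB4-/- replicate 4. Hoxc8 had 1 read each in ErbB4-/- replicates 3 and 4, and Hoxc5 had 1 in ErbB4-/- replicate 2. Hoxc9, Hoxc10, Hoxc11 and Hoxc12 had 0 reads.

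The HoxA and HoxD clusters were nearly empty. In HoxA (chr6:52105366-52210874) 10 of 11 genes had 0 reads, and the exception was Hoxa13, a gene of distal limb and hindgut, with 2 reads in ErbB4-/- replicate 1. In HoxD (chr2:74506367-74603200) 7 of 9 genes had 0 reads. Hoxd13, also used in distal limb, had 1 read in ErbB4+/+ replicate 1 and 1 in ErbB4-/- replicate 3, and Hoxd3 had 1 read in ErbB4+/+ replicate 2. Summed exon length was 32580 bases in HoxA, 29178 in HoxB, 20133 in HoxC and 28321 in HoxD, so the cluster with the fewest reads had the longest exons. Hoxb9 held 21 of the 41 HoxB reads.

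**Figure D3:**
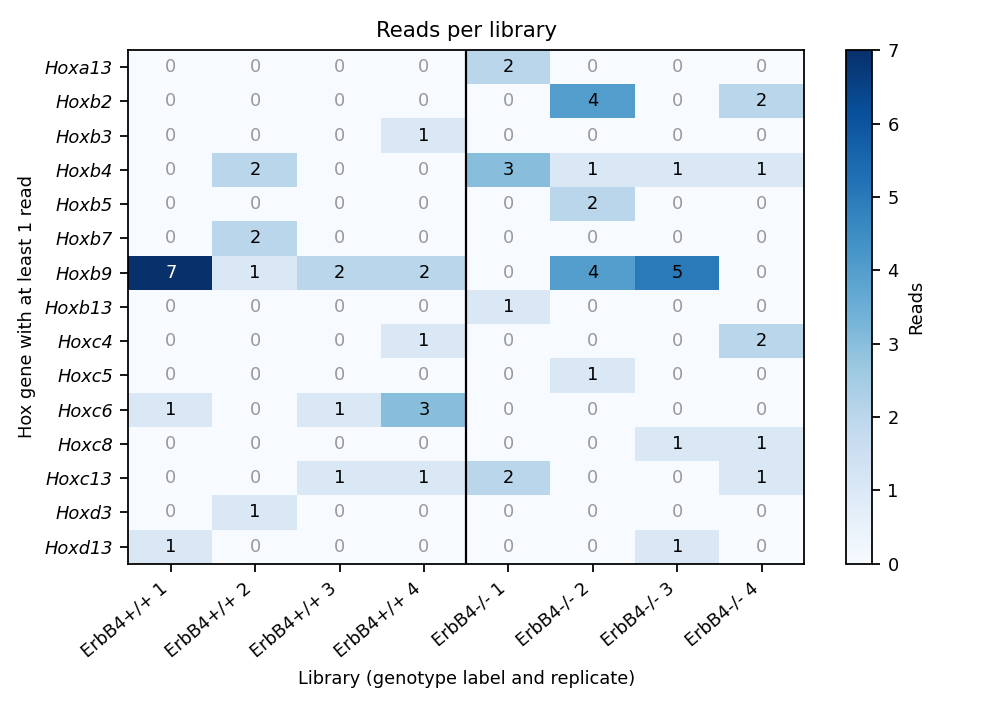
Reads of the 15 Hox genes with at least 1 read in each of the 8 libraries; the number and the colour give the reads, and the vertical line separates the genotype labels. Most boxes hold 0, and the highest is Hoxb9 in ErbB4+/+ replicate 1 with 7 reads.

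The few reads were not concentrated in the anterior genes, whose known domains come closest to the telencephalon. Anterior genes (paralogue groups 1 to 3) had 8 reads in 3 of 8 genes. Central genes (groups 4 to 8) had 23 reads in 7 of 15 genes, and posterior genes (groups 9 to 13) had 31 reads in 5 of 16 genes, 21 of them in Hoxb9 and the other 10 in group 13. Groups 1, 10, 11 and 12 had 0 reads, while all 4 genes of group 13, the most posterior, had 1 to 5 reads each. Of the 15 genes, 4 had reads only in ErbB4+/+ and 6 only in ErbB4-/-, while 5 had reads in both.

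No Hox gene could be called different between the genotypes. None of the 39 passed edgeR's filter on low counts, so 0 were among the 14696 genes tested, of which 4 passed an adjusted p of 0.05 (0.0272%). With no filter 15 Hox genes entered the edgeR test and 0 passed the adjusted threshold (0.0265% of the 18872 genes in that fit did). Hoxc6 had an unadjusted p under 0.05 in that fit (log2 difference -0.74, SE 0.32, edgeR adjusted p = 0.813), 1 of 15 Hox genes where 5.42% of all genes in the fit did. Its reads numbered 5 and 0, and the fitted difference and the SE derived from it depend on the prior count. DESeq2 gave 0 of 15 Hox genes an unadjusted p under 0.05 (5.1% of all genes with a p did). It gave an adjusted p to Hoxb9 alone, so the other 14 could not be called (0.138% of 16682 genes were). For Hoxb9 the unfiltered edgeR fit gave a log2 difference of -0.37 (SE 0.59, adjusted p = 0.883), or -0.55 with a prior count of 0.5. DESeq2 gave -0.67 with an adjusted p of 0.951, so the size of the difference depends on the tool and the prior count. The direction turned to 0.16 without ErbB4+/+ replicate 1, which held 7 of the 12 ErbB4+/+ reads. In 0 of the 15 genes did the genotypes fail to overlap, against 3.34% of the 14696 tested genes, none of them a Hox gene. A gene with a 0 in both genotypes always overlaps. Only Hoxb9 in ErbB4+/+ and Hoxb4 in ErbB4-/- had reads in all 4 libraries of a genotype, so for the other genes the outcome was fixed. At these counts a difference between the genotypes was not detectable, which does not show that there was none.

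Nothing else inside the clusters was counted. The 10 rows that lie within the clusters without a Hox symbol all had 0 reads. They were Hoxa11as, 2700086A05Rik, Gm53, 1700109F18Rik and otherwise microRNA genes. Of the fixed list of 22 noncoding and neighbouring genes of the clusters, 11 had a row, and all 11 had 0 reads, among them Hoxa11as, 2700086A05Rik, 5730457N03Rik and the homeobox genes Evx1 and Evx2. The rows of the cluster microRNAs are part of both sets and are not a further result. PolyA libraries are not made to hold mature microRNAs, so the zeros of these rows say little. The mature sequences are shown because copies lie in several clusters, as the Hox genes do, with the seed (bases 2 to 8) in capitals, from RefSeq (GRCm38.p6):
miR-10a-5p (HoxB): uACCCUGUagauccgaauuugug
miR-10b-5p (HoxD): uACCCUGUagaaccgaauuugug
miR-196a-5p (HoxB and HoxC): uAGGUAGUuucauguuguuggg
miR-196b-5p (HoxA): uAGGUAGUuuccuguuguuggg
The miR-10 pair share the seed ACCCUGU and the miR-196 pair share AGGUAGU.

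The empty region ended outside the clusters. Within 500 kb of a cluster 58 other rows were found, and 33 of them had a mean of at least 1 CPM. The nearest such genes on either side of HoxD were Lnp at 88.9 kb (83.3 CPM) and Mtx2 at 60.7 kb (70.6 CPM). Around HoxC they were Calcoco1 at 198.9 kb (126 CPM) and Smug1 at 116.5 kb (39.0 CPM). Around HoxA they were Skap2 at 142.8 kb (4.84 CPM) and Hibadh at 285.3 kb (30.3 CPM). Around HoxB, the cluster with the most Hox reads, they were Atp5g1 at 118.6 kb (6.40 CPM) and Skap1 at 96.3 kb (1.04 CPM). The fixed list of flanking genes was led by Cbx5, Tax1bp1 and Calcoco1, and 0 of its 13 tested genes were called by edgeR (0.0272% of all tested genes were). Snx10 and Snx11, 2 of the 13, had an unadjusted p under 0.05, which 5.53% of all tested genes had.

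**Figure D4:**
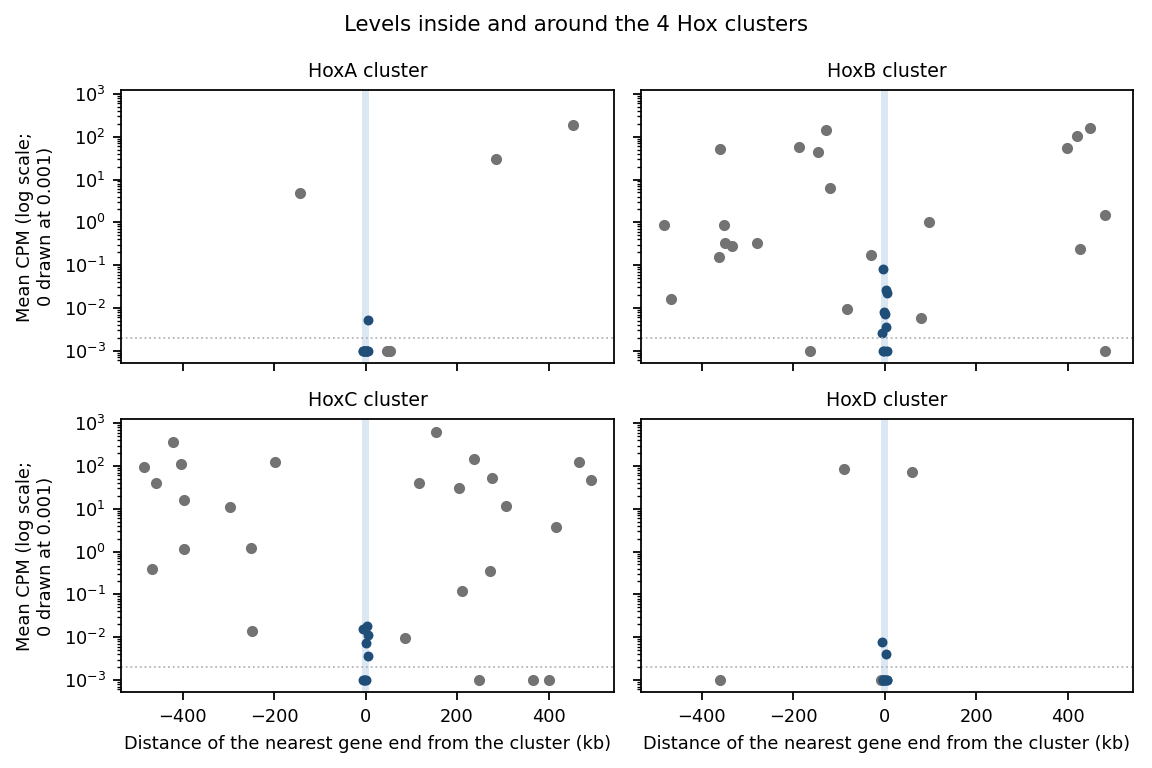
Mean CPM over the 8 libraries (log scale, 0 drawn at 0.001) of genes within 500 kb of each Hox cluster against distance from the cluster in kb. Hox genes are the dark points in the blue band, which marks the cluster and is not to scale; grey points are genes outside, 33 of which reach 1 CPM.

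Hox promoters do not share a single base composition. RefSeq gave 300-base windows (250 bases before to 50 after the start, GRCm38.p6) for 22 of the 39 genes, 24 windows in all. They held a median of 14.5 CG dinucleotides, against 7 in the 32851 windows of all genes. At least 15 were held by 12 of the 24 Hox windows and by 34.6% of all windows. The motif TATAAA, searched on both strands, was found in 16.7% of Hox windows and 13.6% of all windows. Among the 19 windows of genes with 0 reads the count ran from 4 to 29. The promoters of Hoxa5 (29 CG) and Hoxa9 (4 CG), both of the HoxA cluster, are shown as examples of that range, both on the minus strand, with CG in capitals. They lie at chr6:52204538-52204837 and chr6:52227321-52227620 (GRCm38.p6):
Hoxa5: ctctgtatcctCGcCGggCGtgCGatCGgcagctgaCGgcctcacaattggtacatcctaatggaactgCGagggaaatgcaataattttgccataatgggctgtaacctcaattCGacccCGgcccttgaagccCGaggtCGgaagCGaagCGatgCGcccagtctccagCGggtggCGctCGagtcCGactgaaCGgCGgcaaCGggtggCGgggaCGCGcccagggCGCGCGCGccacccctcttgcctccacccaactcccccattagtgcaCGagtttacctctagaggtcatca
Hoxa9: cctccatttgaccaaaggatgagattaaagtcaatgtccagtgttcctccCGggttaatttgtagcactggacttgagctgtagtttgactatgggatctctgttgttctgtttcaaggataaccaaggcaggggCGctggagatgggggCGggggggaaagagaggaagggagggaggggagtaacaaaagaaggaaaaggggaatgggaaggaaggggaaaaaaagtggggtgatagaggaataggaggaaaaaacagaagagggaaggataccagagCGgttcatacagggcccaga
Both genes had 0 reads in all 8 libraries. The 5 windows of Hox genes with reads held 9 to 45 CG, with the most in Hoxa13, so the ranges overlapped.

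Levels were then compared per length, as CPM divided by exon length in kilobases (RPKM), with means over the 8 libraries. Hoxb9 was the highest Hox gene at 0.0308 RPKM. The 3 reads allowed at a count of 0 correspond to 0.0251 to 0.0442 RPKM per library for Hoxa2, a gene of hindbrain segments with 0 reads. All 9 TALE cofactors lay above Hoxb9, with a lowest value of 3.03 RPKM and a median of 15.1 RPKM. All 10 dorsal telencephalon markers did as well, from 4.69 to 449 RPKM.

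Genes known mainly from other regions and organs were set beside the Hox genes. Of 12 midbrain and hindbrain genes 1 had 0 reads and their median was 0.0161 RPKM. Over both genotypes 4 lay above Hoxb9, among them Gbx2 at 0.501 RPKM and Egr2 at 0.0602 RPKM. Egr2 and Fgf8 exceeded Hoxb9 in ErbB4-/- (0.0898 and 0.0709 RPKM, against 0.0236) but not in ErbB4+/+ (0.0306 and 0, against 0.0380). Neither gene overlapped between the genotypes in CPM (exact two-sided permutation test, unadjusted p = 0.0286 each, the smallest possible), and neither passed edgeR's filter. Egr2 had 2, 2, 2 and 8 reads in ErbB4+/+ replicates 1 to 4 and 14, 8, 9 and 15 in ErbB4-/-. Its groups met at 8 reads and parted only in CPM. Fgf8 had 0 reads in ErbB4+/+ and 2, 1, 11 and 1 in ErbB4-/-, most of them in replicate 3, high in choroid plexus markers. Both genes were picked after their values were seen. Of the genes that passed the filter, 3.34% did not overlap. Of 8 spinal cord genes 2 had 0 reads (Mnx1 and Lbx1), the median was 0.0148 RPKM and 3 lay above Hoxb9, namely Nkx2-2, Isl2 and Tlx3. Of 16 genes of pancreas, testis and other organs, a list written after the Hox values were seen, 6 had 0 reads and the median was 0.0109 RPKM. Over both genotypes 6 of the 16 lay above Hoxb9, of which Sftpb did so in ErbB4-/- (0.0494 RPKM) but not in ErbB4+/+ (0.0158 RPKM). The median Hox gene was at 0, below the medians of these 3 lists, and no test was made between lists.

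**Figure D5:**
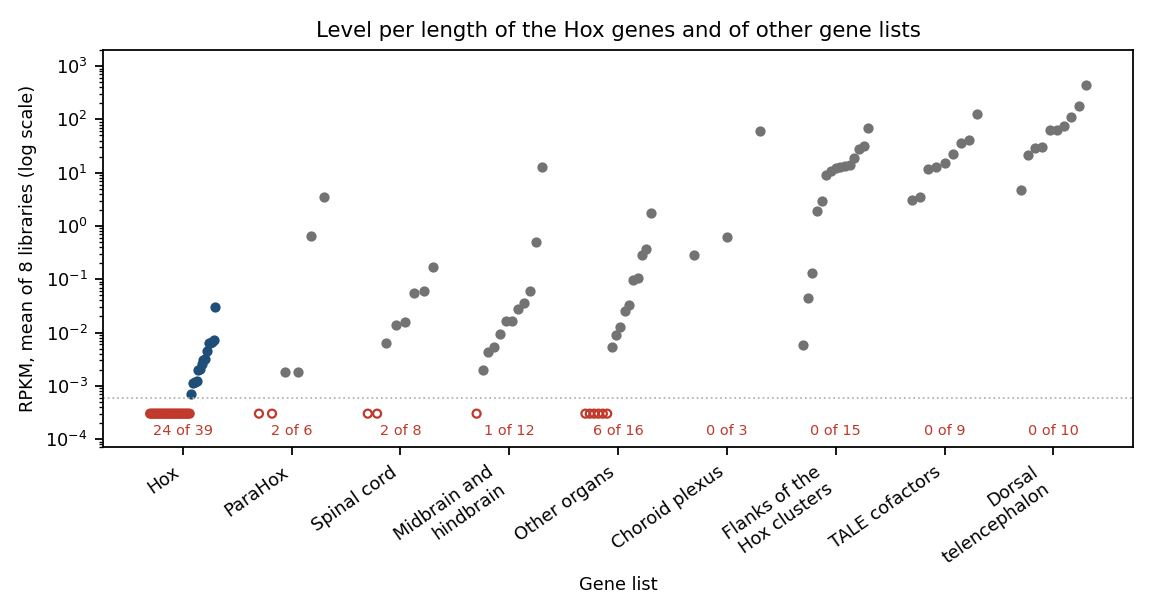
Mean RPKM over the 8 libraries (log scale) of the genes of each list, 1 point per gene. Open red circles below the dotted line are genes with 0 reads, counted in red, 24 of 39 for Hox; the filled Hox points end at 0.0308 RPKM, below all 9 TALE cofactors.

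The ParaHox genes, the evolutionary sister group of the Hox genes, were divided. Gsx2, a progenitor gene of the ganglionic eminence, was at 3.49 RPKM and Gsx1 at 0.659 RPKM. Pdx1 and Cdx2, genes of pancreas and gut, had 0 reads, and Cdx1 and Cdx4 were at 0.00183 RPKM each. The other ganglionic eminence markers (Gad2, Lhx6 and Dlx1 the highest) summed to 469.5 to 637.7 CPM in ErbB4+/+ and 460.5 to 651.1 CPM in ErbB4-/-, and their part in the Gsx levels was not tested.

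Transcripts of the cofactors with which Hox proteins bind DNA were abundant. Meis2 was at 499 ± 16.9 CPM in ErbB4+/+ and 484 ± 17.1 CPM in ErbB4-/- (SD, n = 4 each). Pbx3 was at 101.8 ± 14.9 and 91.9 ± 5.90 CPM. None of the 9 cofactors was called, where 0.0272% of all tested genes were. Their log2 differences ran from -0.18 in Pbx4 to 0.04 in Pknox1, 1 of 9 was above 0, and the median was -0.12 against -0.0021 over all genes. Pbx4 turned to 0.026 without ErbB4+/+ replicate 1. Pbx2 had an unadjusted p under 0.05 (85.4 ± 6.16 and 76.3 ± 4.51 CPM, log2 difference -0.16, SE 0.067, edgeR adjusted p = 0.810), 1 of 9 where 5.53% of all tested genes did.

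Transcripts of polycomb and trithorax genes were present as well. All 24 polycomb genes were above Hoxb9, from 1.51 to 57.3 RPKM, with Rbbp4, Phc2 and Ezh2 the highest in CPM. Of these, 0 of 24 had an unadjusted edgeR p under 0.05 (5.53% of all tested genes did) and 0 were called (0.0272% of all tested genes were), 7 were above 0 in log2 difference, and the median was -0.04. Of the 15 trithorax genes listed 11 had a row, from 4.71 to 38.9 RPKM, with Kdm6b, Mll1 and Mll3 the highest in CPM. Kdm6a, which removes a polycomb mark, was the only one of the 11 with an unadjusted p under 0.05 (log2 difference -0.38, edgeR adjusted p = 0.810), against the same 5.53% of all tested genes, and the median of the 11 was 0.01. Kdm6a is X-linked and was at 58.0, 74.8 and 81.6 CPM in the 3 high-Xist libraries, at 54.3 CPM in ErbB4+/+ replicate 4 and at 46.1 to 56.2 CPM in ErbB4-/-, and the part of sex in its values was not tested. Over all fixed lists, edgeR called 0 of 102 tested genes, beside 0.0272% of all genes, and 8 of the 102 had an unadjusted p under 0.05, beside 5.53%. DESeq2 called 0 of 112 list genes, beside 0.138% of all genes.

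Other cell types were checked for tissue that could carry Hox transcripts. Endothelial markers (Cldn5, Kdr and Pecam1 the highest) summed to 126 to 131 CPM in ErbB4+/+ and 127 to 135 CPM in ErbB4-/-, with all 6 detected. Microglial markers (Csf1r, Cx3cr1 and Fcrls) summed to 60.2 to 71.9 and 61.2 to 71.8 CPM, with all 8 detected. Meningeal markers (Col3a1, Col1a2 and Dcn) summed to 10.4 to 11.9 and 10.2 to 18.2 CPM, with all 5 detected. Red blood cell markers summed to 11.8 to 14.5 and 11.4 to 17.9 CPM, carried by Alas2, while Hbb-b2, Hba-a1 and Hba-a2 were at 0 and Hbb-b1 had 1 read. Why these globin rows were empty beside Alas2 was not tested, and a row at 0 need not mean absent RNA. Which cells the 62 Hox reads came from was not tested.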

How the data were processed

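The authors sequenced polyA-selected, non-stranded libraries as single-end 50-nucleotide reads, mapped them to mm9 with HISAT and counted them with HTSeq. Their deposited files hold raw counts per gene symbol. The annotation and the counting mode are not given in the sources used here. A deposited table of the authors' DESeq2 comparison (fold changes and p-values) was not used.

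The test was run in R 4.3.3 with edgeR 4.0.16 (quasi-likelihood F test on TMM-normalized counts, filterByExpr defaults of 10 reads per library and 15 in total, Benjamini-Hochberg adjustment over all genes tested, threshold 0.05, prior count 2), with ErbB4-/- over ErbB4+/+. CPM are per TMM-scaled library size. The SE of an edgeR log2 difference was derived as its size divided by the square root of the F statistic, and was not estimated separately. Alternatives were DESeq2 1.42.0, relative log expression or no normalization factors, no filter, prior count 0.5, a threshold of 0.1, a replicate block, other detection limits, thinning to the smallest library, and each library left out. On simulated data with the same group sizes and 200 changed genes, edgeR recovered 97% with 12 false calls among 14721 genes and DESeq2 96.5% with 20 among 15411. The changed genes were drawn from rows with a mean above 1 CPM, and all genes were given the same dispersion. No Hox gene reached that level, so the simulation does not bear on the Hox genes. Exact permutation tests used all 70 assignments. Exon lengths and 50-base windows came from GENCODE vM1 on NCBIM37.

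The members, the 15 gene lists and the tests were chosen with earlier results of these data known. The genes named are Hox genes by their reads, Erbb4, and of each list the genes passing the threshold or otherwise the 3 highest in mean CPM. Some genes that this rule names, and 1 sequence, are not reported here. Further genes were named after their values were seen, as extremes of a range, as genes at 0, as genes above Hoxb9, as genes with an unadjusted p under 0.05 or as neighbours of a cluster.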

Additional observations from a re-analysis of the deposited data

Results flagged for a closer look

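With 4 libraries per genotype, a library stood far from the other 3 of its genotype in 17 values of the 88 groups checked, by Dixon's criterion. Chance flags about 1 in 20 groups, and a gene with reads in a single library of a genotype is always flagged. Single-library Hox values of this kind were Hoxa13 at 0.0406 CPM and Hoxb13 at 0.0203 CPM in ErbB4-/- replicate 1, Hoxb5 at 0.0574 CPM and Hoxc5 at 0.0287 CPM in ErbB4-/- replicate 2, Hoxd13 at 0.0256 CPM in ErbB4-/- replicate 3 and Hoxc4 at 0.0635 CPM in ErbB4-/- replicate 4. In ErbB4+/+ they were Hoxd13 at 0.0357 CPM in replicate 1, Hoxb4 and Hoxb7 at 0.0642 CPM each and Hoxd3 at 0.0321 CPM in replicate 2, and Hoxb3 and Hoxc4 at 0.0285 CPM each in replicate 4. Each of these rests on 1 or 2 reads.

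Hoxb9 in ErbB4+/+ replicate 1 was at 0.250 CPM with 7 reads, where the other ErbB4+/+ libraries had 1 or 2. Pbx2 in ErbB4-/- replicate 4 was at 83.0 CPM, above the other libraries of that label. Summed markers stood apart in ErbB4-/- replicate 3 for choroid plexus (583 CPM) and meninges (18.2 CPM), and the summed trithorax genes were low in ErbB4+/+ replicate 1 (1143 CPM).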

How the results depend on the processing

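The result of 0 Hox genes called held under all 14 alternatives, in 12 of which no Hox gene entered the test. Of the 216 values recomputed, 201 kept their direction and their side of the threshold, or stayed within 1.5 times or 1 SD. The 15 Hox genes with a read became 6 with at least 3 reads and 3 with reads in at least 4 libraries, and 13 to 15 with a library left out. Without Hoxb9 the summed Hox level of ErbB4+/+ was 0.114 CPM and that of ErbB4-/- was 0.173 CPM. With a library left out it was 0.175 to 0.247 CPM in ErbB4+/+ and 0.196 to 0.257 CPM in ErbB4-/-. Leaving out ErbB4+/+ replicate 1 turned Hoxb9 to 0.16 (no filter, edgeR adjusted p = 0.973, range -0.69 to 0.16 over the libraries left out) and Pbx4 to 0.026 (edgeR adjusted p = 0.981, range -0.31 to 0.026). The 4 genes called over the whole table became 23 with DESeq2, 1 with relative log expression factors, 1 with the replicate block, and 1 to 13 with a library left out (13 when ErbB4+/+ replicate 4 was dropped, 2 when ErbB4+/+ replicate 2 or ErbB4-/- replicate 4 was, 1 when ErbB4+/+ replicate 3 or any of ErbB4-/- replicates 1 to 3 was). The cause was not tested. ErbB4+/+ replicate 4 was the only ErbB4+/+ library with low Xist (3.47 CPM), so without it every ErbB4+/+ library was high in Xist and every ErbB4-/- library low. Libraries with the same replicate number correlated at 0.0236 to 0.135 in their deviations, 2 of the 4 ErbB4+/+ libraries matched their own number best, and the block changed no call of a Hox gene or a list gene. At this depth levels under 0.0609 to 0.107 CPM in a library could not be told from 0.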
